A study of Homo sapiens with 4 samples.

Results

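Type I interferon response genes were followed in SK-BR-3, a long-established line of human breast cancer cells whose p53 is mutant and whose HER2 gene is amplified. The list holds 40 genes of the pathway, chosen by name from its receptors, signal transducers, nucleic acid sensors and induced genes, out of 19775 genes with a named probe set. Each gene was read from its brightest probe set that carries a single gene symbol, that is, the one whose log2 signal was highest on average. Of the 40 genes, 39 had such a probe set. STAT2, a transcription factor of the pathway, had none in the annotation used here and has no value. The mean signal over the arrays was at least 15 for 29 members, and the other 10 lay below it and are set apart.

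Each of the 4 groups was measured on 1 array. The first carried p53 shRNA and siRNA against Pontin and is called both knockdowns here. The second carried p53 shRNA and the third siRNA against Pontin with the control shRNA vector. The fourth carried the control shRNA vector alone, which the protocol text calls an empty vector. All cells were selected with puromycin after shRNA transfection and collected 24 h after the siRNA step. The titles of the arms without Pontin siRNA read sicon, a term that is not spelled out. It is not stated whether the selected cells were pooled or clonal, or whether the siRNA arms were split from the same selected populations. With 1 array per group there is no replicate, no p-value is given, and differences were judged by size in 2 matched pairs per knockdown. The p53 shRNA pairs were p53 shRNA over control shRNA and both knockdowns over Pontin siRNA. The Pontin siRNA pairs were Pontin siRNA over control shRNA and both knockdowns over p53 shRNA. The 2 pairs of a knockdown share no array, while p53 shRNA pairs and Pontin siRNA pairs are built from the same 4 arrays.

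As background, cells sense foreign or misplaced nucleic acid through proteins such as the RNA sensor MDA5 and the DNA sensor cGAS, which leads to interferon production. Secreted type I interferon binds the receptor chains IFNAR1 and IFNAR2, and the kinases JAK1 and TYK2 then bring about the assembly of the transcription factor complex ISGF3, which holds STAT2 and IRF9. This complex binds the interferon-stimulated response element in the promoters of induced genes, many of which encode antiviral proteins.

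The siRNA target RUVBL1, which encodes Pontin, had signals of 65.8 with both knockdowns and 127.4 with Pontin siRNA, against 398.2 with p53 shRNA and 477.7 with control shRNA. Pontin siRNA went with a 6.05-fold lower signal among cells with p53 shRNA and a 3.75-fold lower one among cells with control shRNA. The p53 transcript is not reported here. Of 8 markers of this epithelial line, 7 had a mean signal of at least 15, and ERBB2, the gene of HER2, lay between 4823 and 5581. CDH3, the marker below it, did not exceed 2.1. All 5 leukocyte markers were below 15 in mean signal, between 0.2 and 25.3 on single arrays, and PTPRC, which encodes CD45, did not exceed 8.3. Of 4 fibroblast markers COL1A1 alone reached 15, at 152.9 to 175.9, and both endothelial markers did, at 27.5 to 105.8. The summed leukocyte signal was 46.7 with both knockdowns, 31.0 with p53 shRNA, 12.0 with Pontin siRNA and 42.0 in control shRNA cells, and its part in the results below was not tested. The array with both knockdowns had a median signal of 19.6 over all probe sets, against 15.9 to 16.5 on the other arrays, and its 25th percentile was 5.7, against 4.1 to 4.3. The part of this in the ratios of dim genes was not tested.

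None of the 29 interferon response genes with a mean signal of at least 15 met the call rule for either knockdown. A gene at this signal was called where both pairs of a knockdown had the same sign and were each at least 1.5-fold, which is 0.58 on the log2 scale. With p53 shRNA, 0 of 29 members were called higher, where 1.44% of the 12128 genes at this signal were, and 0 were called lower, where 0.866% were. With Pontin siRNA, 0 were called higher and 0 lower, against 1.19% and 1.25% of all genes. These shares are so small that a count of 0 among 29 genes is near the background and is not a result about the members. For either knockdown, CGAS alone moved by 1.5-fold or more in each pair but up in one and down in the other, where 0.907% of all genes were for p53 shRNA and 0.874% for Pontin siRNA.

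For p53 shRNA, the median log2 ratio of the 29 members was -0.02 over control shRNA and 0.00 in Pontin siRNA cells, against 0.00 and -0.01 for all genes. For Pontin siRNA it was 0.00 over control shRNA and -0.07 in p53 shRNA cells, against 0.01 and 0.00 for all genes. In the last pair 19 of 29 members lay below 0, and the share of all genes below 0 was not counted. The members' median there moved to -0.22 after quantile and -0.19 after cyclic loess scaling, where those of all genes were -0.01 and -0.01. It moved to -0.18 with the mean over probe sets and to -0.22 without the signal minimum, where those of all genes were 0.04 and 0.04. Median scaling shifts every gene of a pair alike, so it left the gap between members and all genes as it was. It put the median of all genes in this pair at -0.29. These differences from all genes were not tested. With p53 shRNA 9 members were above 0 in both pairs and 9 below, 31.0% each, against 30.7% and 32.1% of all genes. With Pontin siRNA 7 were above and 11 below, 24.1% and 37.9%, against 33.8% and 31.9% of all genes. For single genes in later paragraphs, both arrays of a knockdown are said to lie above, or below, both others. Such an order needs the same sign in both pairs, and its share of all genes was not counted. It is therefore a description of the signals and not evidence of a difference. The median size of a member's log2 ratio, sign aside, was between 0.16 and 0.25 over the 4 pairs, where that of all genes was between 0.16 and 0.20.

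**Figure D1:**
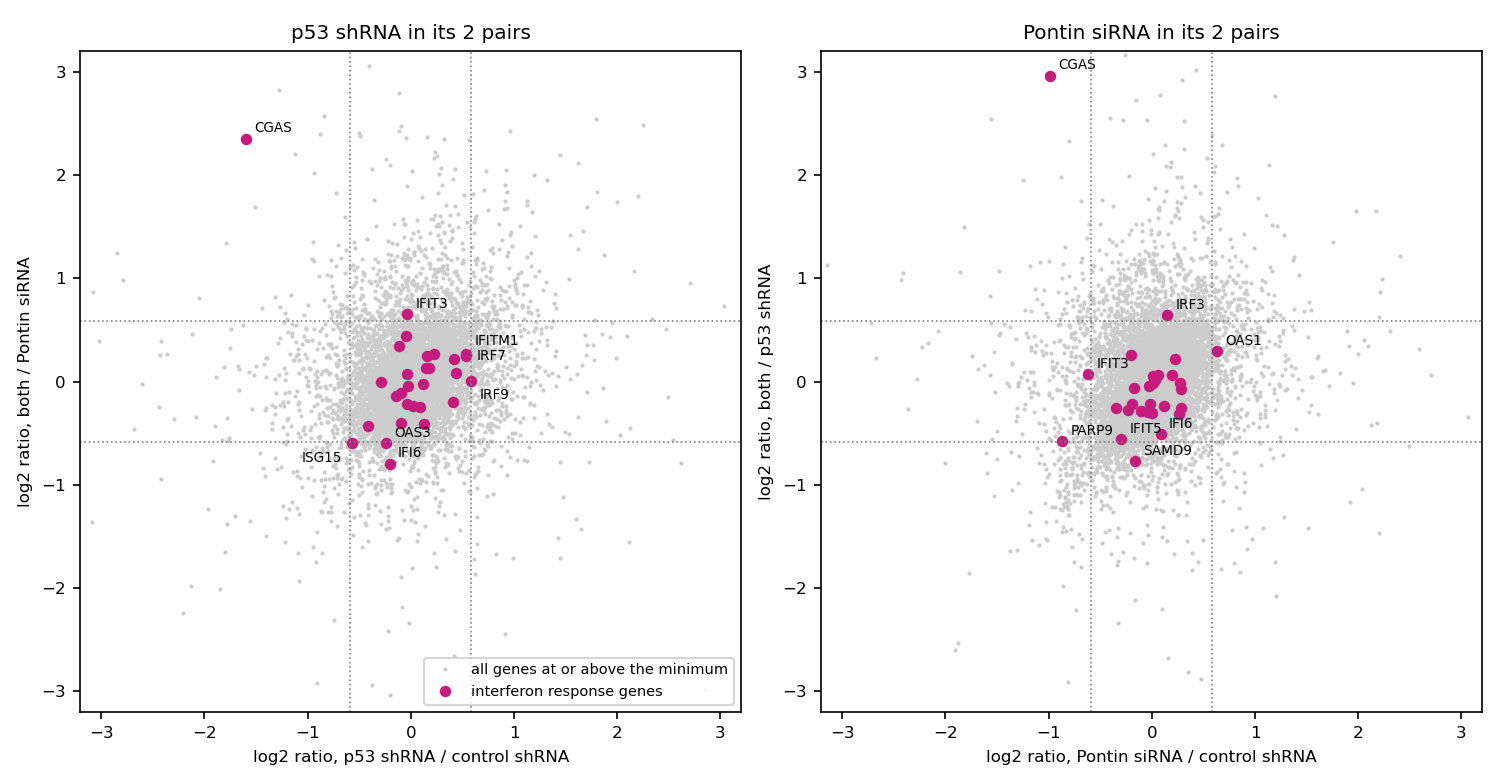
The log2 signal ratio of each gene in one pair of a knockdown (horizontal axis) against the other pair (vertical axis), for p53 shRNA (left) and Pontin siRNA (right); "both" stands for both knockdowns, grey points are the 12128 genes of mean signal at or above 15, coloured points the 29 members, and dotted lines mark 1.5-fold. The members other than CGAS lie within the grey cloud, ISG15 and PARP9 sit at the corner where calls begin, CGAS lies far out with opposite signs, and 7 genes on the left and 8 on the right fall outside the plotted range.

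Signals of the members spanned a wide range, and several genes widely used as markers of an interferon response, among them MX1, IFIT1, IFI44L and IFI27, were dim on all 4 arrays. Of the 39 members with a probe set, 14 reached the 75th percentile of all probe sets, a mean signal of 110.9, and are called bright here. The brightest were IFITM2 and IFITM3, which encode membrane proteins that block virus entry, at mean signals of 1319 and 1155. PSMB8, ISG20, IFITM1 and IFIH1 followed at 577.3, 495.3, 490.0 and 441.6. The other bright members were IRF1, IRF3, ISG15, IFI6, IFNAR1, IFNAR2, DTX3L and PSMB9. Signals of different probe sets are not on 1 scale of abundance, so this order describes signal and not transcript number.

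**Figure D2:**
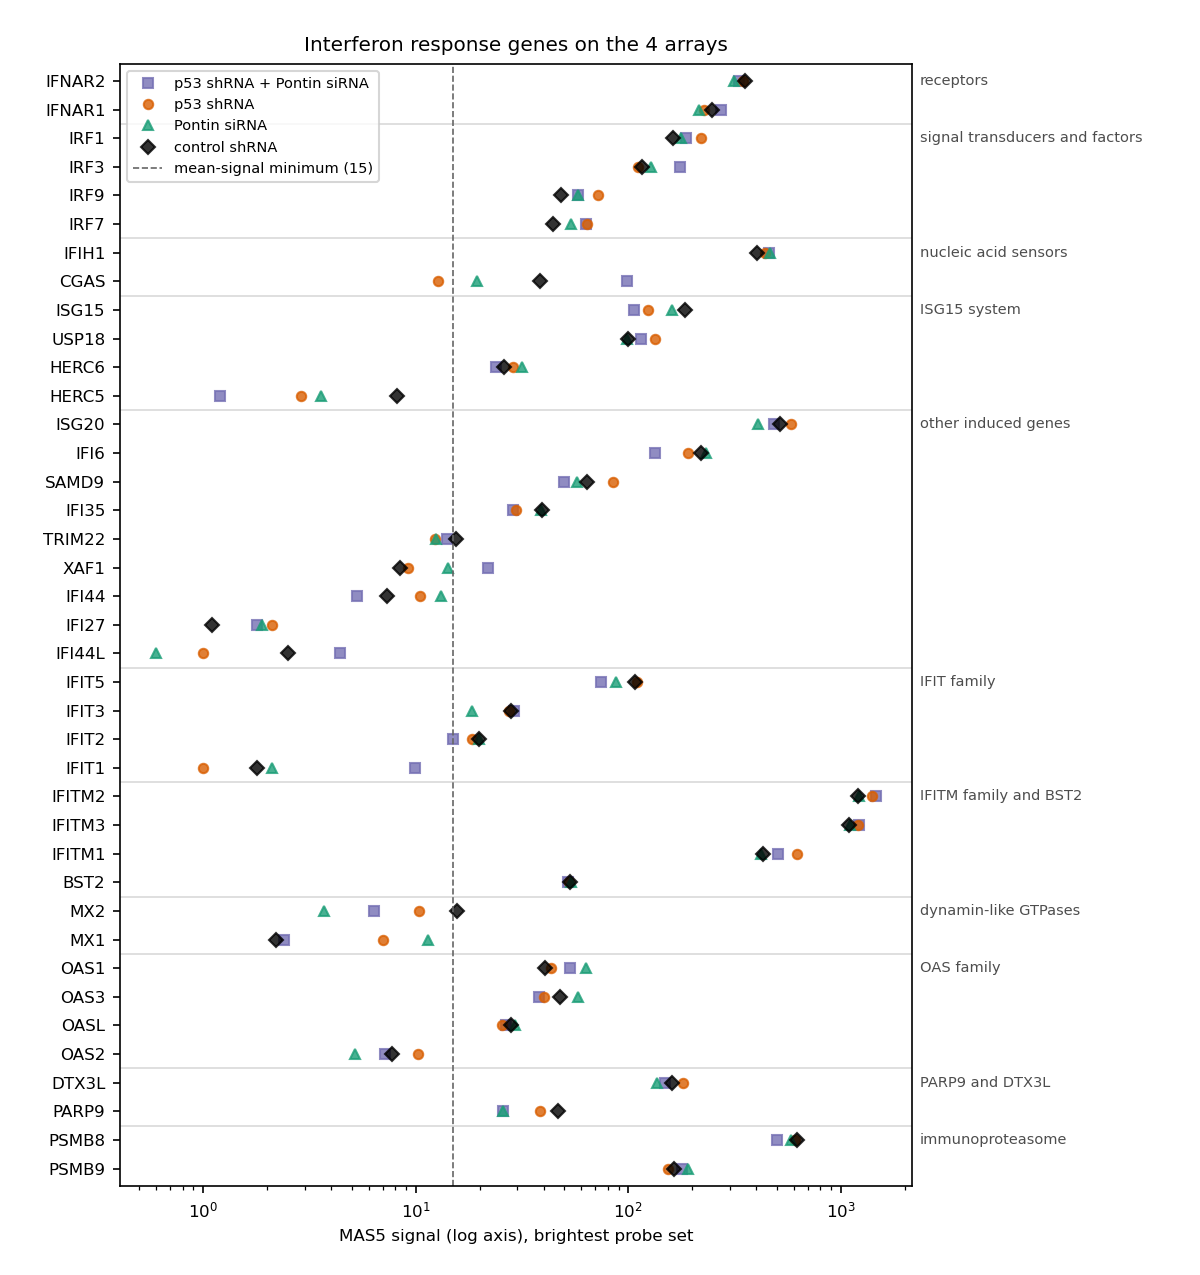
MAS5 signal (log axis) of the brightest probe set of each of the 39 members on the 4 arrays, grouped by role; each symbol is 1 array and the dashed line marks a mean signal of 15. The IFITM genes lie between 421.2 and 1465, while IFI27, IFI44L, IFIT1, MX1 and HERC5 stay below 12 on every array.

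In all, 10 members had a mean signal below 15. Among them were MX1 and MX2, which encode dynamin-like GTPases that restrict viruses, and IFIT1, whose protein binds viral RNA ends. MX1 read 2.4 with both knockdowns, 7.0 after p53 shRNA, 11.4 after Pontin siRNA and 2.2 in the control. IFIT1 read 9.9 with both knockdowns, 1.0 with p53 shRNA, 2.1 with Pontin siRNA and 1.8 in control shRNA cells. IFI44L, another induced gene, read 4.4 with both knockdowns, 1.0 with p53 shRNA, 0.6 with Pontin siRNA and 2.5 in control shRNA cells. These genes had no common order of the arrays: MX1 was highest with Pontin siRNA, while IFIT1 and IFI44L were highest with both knockdowns. MX2 was between 3.7 and 15.7 and was highest with control shRNA. The remaining dim members, given by their range over the arrays, were IFI27 (1.1 to 2.1), IFI44 (5.3 to 13.1), OAS2 (5.2 to 10.2), XAF1 (8.4 to 21.9), HERC5 (1.2 to 8.2) and TRIM22 (12.3 to 15.4). At this signal a few units make a large ratio. In log2, MX1 was at 1.67 with p53 shRNA over control shRNA and at -2.25 with both knockdowns over Pontin siRNA, and IFI44L at -1.32 and 2.87 in the same order. For Pontin siRNA over control shRNA and both knockdowns over p53 shRNA, MX1 was at 2.37 and -1.54 and IFI44L at -2.06 and 2.14. IFIT1 was at 2.24 with both knockdowns over Pontin siRNA and at 3.31 with both knockdowns over p53 shRNA, and MX2 at -2.09 with Pontin siRNA over control shRNA. HERC5 for either knockdown, and MX2 and XAF1 for Pontin siRNA, were at least 1.5-fold with 1 sign in both pairs, but lie below the signal at which calls were made.

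The interferon-stimulated response element was searched in the promoters that RefSeq gives for the members, to show which of these dim and bright genes carry it. The window ran from 250 bases before to 50 after each gene's start on GRCh38.p14, and the core was spelled GAAANNGAAA, on either strand, with overlapping matches counted. A window was at hand for 29 members, and 20 of them held the core in at least 1 window. Counted by window, 24 of the 38 member windows held it, where 3.57% of all 35116 windows of this length did. The members were chosen by name as genes of the interferon pathway, so this contrast is not a result of the arrays. It was found in 14 of 21 members at or above the signal minimum and in 6 of 7 below it. No match means only that these letters are not in the window, as for IRF1, IRF9, IFI35, OAS1, XAF1, IFNAR1, HERC6, PSMB9 and STAT2. Printed here are stretches of bright members with ratios near the call threshold or high signal (ISG15, IFI6, IFITM1, IFITM3), of the gene pair PARP9 and DTX3L, and of dim members (IFIT1, HERC5). Each is given 5′ to 3′ on the strand of its gene, with the core in capitals, which reads TTTCNNTTTC where it lies on the other strand.
ISG15, chr1:1013364-1013419, plus strand: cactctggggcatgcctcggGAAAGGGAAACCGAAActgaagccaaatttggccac
IFI6, chr1:27672256-27672368, minus strand: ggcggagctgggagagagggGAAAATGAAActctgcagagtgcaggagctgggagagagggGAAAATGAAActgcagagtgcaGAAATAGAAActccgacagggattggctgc
IFITM1, chr11:313980-314063, plus strand: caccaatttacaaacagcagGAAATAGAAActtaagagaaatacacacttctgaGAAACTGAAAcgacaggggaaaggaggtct
IFITM3, chr11:320866-320932, minus strand: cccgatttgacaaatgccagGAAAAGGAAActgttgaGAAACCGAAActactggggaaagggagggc
DTX3L, chr3:122564312-122564361, plus strand: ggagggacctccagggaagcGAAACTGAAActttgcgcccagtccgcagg
IFIT1, chr10:89392487-89392549, plus strand: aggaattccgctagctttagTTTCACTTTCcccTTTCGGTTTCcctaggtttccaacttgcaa
HERC5, chr4:88456974-88457074, plus strand: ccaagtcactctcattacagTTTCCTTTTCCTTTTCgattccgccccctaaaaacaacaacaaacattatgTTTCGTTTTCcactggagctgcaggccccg

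ISG15 and HERC5 each hold 2 cores that overlap, printed as a single capital run, and HERC5 holds a further one. IFI6 holds 3 cores, of which 2 have the same letters. PARP9 and DTX3L start on opposite strands, and the core printed for DTX3L is the same 10 bases that lie in a PARP9 window, on the other strand.

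Among the receptors and transducers the ratios past 1.5-fold belonged to IRF genes. The receptor chains stayed within narrow ranges on their brightest probe sets, but less so on others. IFNAR1 had signals of 272.9 with both knockdowns, 227.6 with p53 shRNA, 214.2 with Pontin siRNA and 246.8 in control shRNA cells. IFNAR2, the high-affinity chain, had 332.2, 346.8, 314.7 and 354.7 in that order. Neither reached 1.5-fold in a pair, and the highest array was 1.27 times the lowest for IFNAR1 and 1.13 times for IFNAR2. Other probe sets of IFNAR1 did not follow the brightest one: its 4 probe sets gave log2 ratios of 0.35, -0.34, 0.05 and -0.49 for both knockdowns over Pontin siRNA. The second of these ran from 186.4 with p53 shRNA to 280.1 with Pontin siRNA. The IFNAR2 probe set used is of a type that can bind other transcripts. A further IFNAR2 probe set, of mean signal 216.6, ran from 186.7 with Pontin siRNA to 268.5 with both knockdowns, a log2 ratio of 0.52.

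IRF9, the DNA-binding part of ISGF3, had signals of 58.2 with both knockdowns, 72.3 with p53 shRNA, 57.8 with Pontin siRNA and 48.1 in control shRNA cells. The p53 shRNA array was highest, and the array with both knockdowns lay close to the one with Pontin siRNA alone. Its log2 ratio was 0.59 for p53 shRNA over control shRNA and 0.01 in Pontin siRNA cells, where median scaling puts it at -0.24. Without scaling, the first pair alone passed 1.5-fold. In that pair IRF9 was the only member higher by this much, 1 of 29, where 5.14% of all genes were. A further probe set, which carries the symbols of both RNF31 and IRF9, had 116.3 with both knockdowns and 115.4 with p53 shRNA. It had 104.8 with Pontin siRNA and 84.4 with control shRNA, so there the array with both knockdowns lay close to the one with p53 shRNA. IRF7, which amplifies interferon production, had 63.6 with both knockdowns and 64.2 with p53 shRNA, against 53.6 with Pontin siRNA and 44.3 with control shRNA. Both p53 shRNA arrays were above both others, at log2 ratios of 0.54 over control shRNA and 0.25 in Pontin siRNA cells, neither of them 1.5-fold. Median scaling puts IRF7 at -0.002 in Pontin siRNA cells.

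IRF1, an interferon-induced transcription factor, had 187.6 with both knockdowns and 220.4 with p53 shRNA, against 177.0 with Pontin siRNA and 163.0 with control shRNA. Its log2 ratios for p53 shRNA were 0.44 and 0.08, with the second at -0.16 after median scaling. Without scaling, its other probe set gave 0.04 and 0.39, both above 0 but in the reverse order of size. IRF3, which relays sensor signals, had 174.3 with both knockdowns, 111.7 with p53 shRNA, 128.5 with Pontin siRNA and 115.7 in control shRNA cells. The array with both knockdowns stood above the others, at log2 ratios of 0.64 over p53 shRNA and 0.59 over control shRNA. For Pontin siRNA over control shRNA it was at 0.15.

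The nucleic acid sensors behaved unlike each other. IFIH1, the gene of MDA5, had 458.8 with both knockdowns, 439.2 with p53 shRNA, 465.3 with Pontin siRNA and 405.7 in control shRNA cells, and its highest array was 1.15 times its lowest. CGAS, the gene of cGAS, had 99.2 with both knockdowns, 12.7 with p53 shRNA, 19.4 with Pontin siRNA and 38.5 in control shRNA cells. Either knockdown alone was below the control and both together were above it. For p53 shRNA the log2 ratios were -1.60 over control shRNA and 2.35 in Pontin siRNA cells, and for Pontin siRNA they were -0.99 over control shRNA and 2.97 in p53 shRNA cells. The departure from the sum of the single log2 effects was 3.95. The CGAS values rest on 1 probe set of a type that can bind other transcripts, and the other 2 CGAS probe sets had signals between 0.3 and 5.3.

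The ISG15 system attaches the ubiquitin-like protein ISG15 to other proteins and removes it. ISG15 had signals of 106.8 with both knockdowns and 124.0 with p53 shRNA, against 161.4 with Pontin siRNA and 184.2 with control shRNA. The p53 shRNA arrays were both below the others without overlap, an order whose share of all genes was not counted. The log2 ratios for p53 shRNA were -0.57 over control shRNA and -0.60 in Pontin siRNA cells, that is 1.49-fold and 1.51-fold lower, so the gene missed the call by its first pair. For Pontin siRNA the ratios were -0.19 and -0.22, and with both knockdowns over control shRNA the ratio was -0.79. ISG15 has a single named probe set, of a type shared by several transcripts.

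USP18, which removes ISG15 from proteins and dampens receptor signalling, had ratios of the opposite sign to those of ISG15 in both p53 shRNA pairs, except that median scaling puts it at -0.03 in Pontin siRNA cells. It had 114.7 with both knockdowns and 133.4 with p53 shRNA, against 98.7 with Pontin siRNA and 100.0 with control shRNA. Its log2 ratios for p53 shRNA were 0.42 and 0.22, both under 1.5-fold. HERC6, a HECT-type ligase gene, lay between 23.9 and 31.8, and HERC5, the gene of the main human ISG15 ligase, was among the dim members.

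The IFITM genes had high signals on all arrays, and in both p53 shRNA pairs the array with p53 shRNA was the higher one, by less than 1.5-fold, except that median scaling puts IFITM3 below 0 in Pontin siRNA cells. Over both pairs the mean log2 ratios after median scaling were 0.27 for IFITM1, 0.12 for IFITM2 and 0.01 for IFITM3, against 0.40, 0.25 and 0.14 without it. IFITM1 had 507.9 with both knockdowns and 624.9 with p53 shRNA, against 421.2 with Pontin siRNA and 431.1 with control shRNA. Both p53 shRNA arrays were above both others, at log2 ratios of 0.54 and 0.27. IFITM2 had 1465 and 1410 on the p53 shRNA arrays, against 1215 and 1207 on the others, at ratios of 0.22 over control shRNA and 0.27 in Pontin siRNA cells. IFITM3 had 1219 and 1204, against 1111 and 1090.0, at ratios of 0.14 and 0.13. None of the 3 reached 1.5-fold, and all 3 probe sets are of types that can bind several transcripts in a family of closely similar genes, so signal shared among them cannot be told apart. A further probe set that carries the symbols of both IFITM1 and IFITM2 had 409.5 and 410.8 on the p53 shRNA arrays and 346.6 and 338.5 on the others. BST2, which encodes tetherin, a protein that holds budding virus at the cell surface, lay between 52.0 and 53.6 on all 4 arrays.

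The OAS genes encode enzymes that make the messenger which activates RNase L, apart from OASL, whose protein lacks that activity in human. OAS3 had 38.2 with both knockdowns and 40.2 with p53 shRNA, against 57.8 with Pontin siRNA and 47.5 with control shRNA. Both p53 shRNA arrays were below both others, at log2 ratios of -0.24 over control shRNA and -0.60 in Pontin siRNA cells. Its other probe set gave -0.35 and -0.38. OAS1 had 53 with both knockdowns, 43.1 with p53 shRNA, 63.0 with Pontin siRNA and 40.6 in control shRNA cells. Both Pontin siRNA arrays were above both others, at ratios of 0.63 over control shRNA and 0.30 in p53 shRNA cells. It was the only member at least 1.5-fold higher with Pontin siRNA over control shRNA, 1 of 29, where 4.30% of all genes were. On its other probe set the Pontin siRNA ratios were 0.08 and 0.52, and the p53 shRNA ratio over control shRNA was -0.71, against 0.09 on the brightest one. OASL lay between 25.4 and 29.3 on its brightest probe set, while its other one, at nearly the same mean signal, read 44.3 with both knockdowns and 21.8 to 24.0 elsewhere.

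The IFIT genes encode RNA-binding proteins that restrict viral translation. IFIT5, the brightest, had 74.4 with both knockdowns, 109.7 with p53 shRNA, 87.8 with Pontin siRNA and 107.8 in control shRNA cells. Both Pontin siRNA arrays were below both others, at log2 ratios of -0.56 in p53 shRNA cells and -0.30 over control shRNA. Its other probe set, of about the same signal, gave -0.08 and -0.24. IFIT3 had 28.9 with both knockdowns, 27.5 with p53 shRNA, 18.4 with Pontin siRNA and 28.2 in control shRNA cells. The Pontin siRNA array alone was low, which gave a ratio of -0.62 for Pontin siRNA over control shRNA and of 0.65 for both knockdowns over Pontin siRNA. IFIT2 lay between 15 and 19.8, just above the minimum.

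PARP9 and DTX3L encode a pair of proteins that act as a complex in the interferon and DNA damage responses. PARP9 had 25.7 with both knockdowns and 25.7 with Pontin siRNA, against 38.4 with p53 shRNA and 46.9 with control shRNA. The Pontin siRNA arrays were both below the others without overlap, at log2 ratios of -0.87 over control shRNA and -0.58 in p53 shRNA cells. The second pair was 1.49-fold, so PARP9 missed the call there, though it was called lower after quantile, cyclic loess or median scaling. Its other probe set, of mean signal 22.3, gave 0.00 over control shRNA and -0.72 in p53 shRNA cells. DTX3L had 149.6 with both knockdowns and 136.8 with Pontin siRNA, against 181.5 with p53 shRNA and 160.5 with control shRNA. It was lower in both pairs as well, at -0.28 in p53 shRNA cells and -0.23 over control shRNA, well inside 1.5-fold. This is the gene pair whose promoter windows share the response element core printed above. Set by that core, the median log2 ratio for Pontin siRNA over control shRNA was -0.13 over the 14 members of sufficient signal with it and 0.23 over the 7 whose windows lack it. For both knockdowns over p53 shRNA the medians were -0.27 and -0.04. The p53 shRNA pairs gave 0.00 and 0.09 over control shRNA, and -0.03 and -0.11 in Pontin siRNA cells. These differences between medians were not tested.

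PSMB8 and PSMB9 encode catalytic subunits of the immunoproteasome, which cuts proteins into peptides for antigen presentation. PSMB8 had 500.7 with both knockdowns, 609.8 with p53 shRNA, 581.7 with Pontin siRNA and 625.4 in control shRNA cells. PSMB9 had 178.2 with both knockdowns and 191.8 with Pontin siRNA, against 153.5 with p53 shRNA and 163.7 with control shRNA. The highest array was 1.25 times the lowest for each gene. The genes differed in the sign of the Pontin siRNA ratios, at -0.10 and -0.28 for PSMB8 and 0.23 and 0.22 for PSMB9, except that median scaling puts PSMB9 at -0.08 in p53 shRNA cells.

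Among the other induced genes, IFI6, which encodes a small mitochondrial protein, was lowest with both knockdowns. It had 134.3 with both knockdowns, 190.8 with p53 shRNA, 233.1 with Pontin siRNA and 219.7 in control shRNA cells. Both p53 shRNA arrays were below both others, at log2 ratios of -0.80 in Pontin siRNA cells and -0.20 over control shRNA. For both knockdowns over p53 shRNA it was at -0.51. IFI35, whose protein binds NMI, had 28.8 with both knockdowns and 29.6 with p53 shRNA, against 38.9 with Pontin siRNA and 39.5 with control shRNA. Its ratios for p53 shRNA were close to each other, at -0.42 and -0.43, and its Pontin siRNA ratios were -0.02 and -0.04.

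SAMD9, a growth-restraining antiviral factor, had 49.9 with both knockdowns, 85.2 with p53 shRNA, 57.2 with Pontin siRNA and 64.1 in control shRNA cells. The p53 shRNA array alone was high, and for both knockdowns over p53 shRNA the log2 ratio was -0.77. Its other probe set, of mean signal 20.5, gave 0.09 there. ISG20, which encodes an RNA exonuclease, had 487.0 with both knockdowns, 580.4 with p53 shRNA, 409.8 with Pontin siRNA and 519.4 in control shRNA cells. Its Pontin siRNA ratios were -0.25 in p53 shRNA cells and -0.34 over control shRNA, and on its second probe set they were -0.18 and -0.27. All 4 ratios had the same sign on both probe sets.

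**Figure D3:**
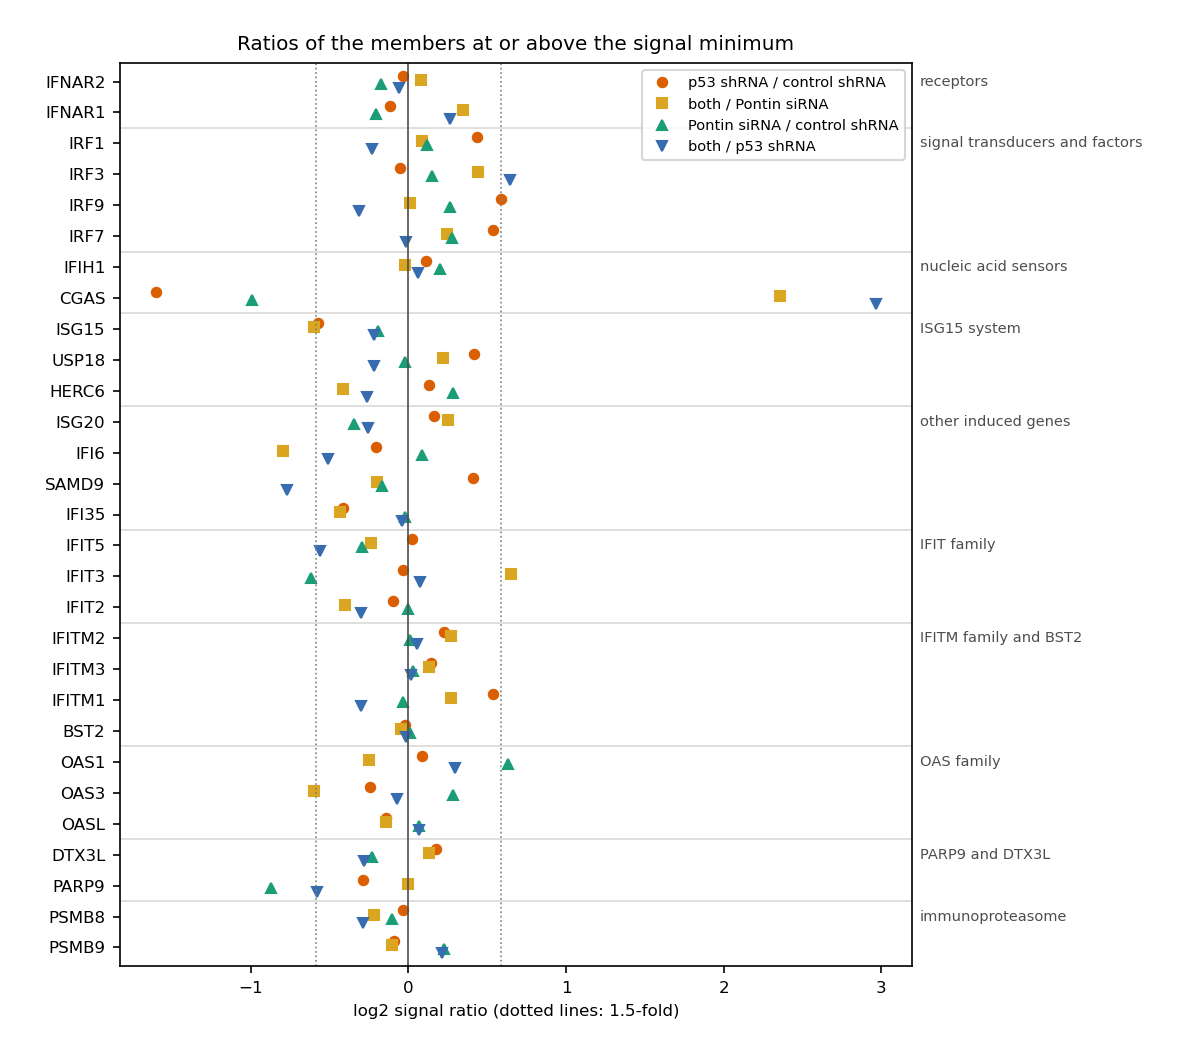
Log2 signal ratios of the 29 members at or above the signal minimum in the 4 pairs, grouped by role; each symbol is 1 ratio of 2 arrays, "both" stands for both knockdowns, and dotted lines mark 1.5-fold. Apart from CGAS, every member lies between -0.87 and 0.65, and no member has both symbols of a knockdown beyond the same dotted line.

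In single pairs, between 1 and 3 members passed 1.5-fold in each direction. For p53 shRNA over control shRNA, IRF9 was higher and CGAS lower, 1 member each, where 3.86% of all genes were lower. For both knockdowns over Pontin siRNA, 2 members were higher (IFIT3 and CGAS), where 6.00% of genes were, and 3 were lower (ISG15, IFI6 and OAS3), where 3.93% were. For Pontin siRNA over control shRNA, 3 members were lower (IFIT3, CGAS and PARP9), where 3.95% of genes were. For both knockdowns over p53 shRNA, 2 members were higher (IRF3 and CGAS), where 6.61% of genes were, and SAMD9 was lower, where 5.38% were. For both knockdowns over control shRNA, IRF3 and CGAS were higher, where 7.61% of genes were, and ISG15, IFI6 and PARP9 were lower, where 5.79% were. These pairs share arrays with each other, so a single high or low array enters several of them.

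The share of genes past 1.5-fold differed with signal. From the minimum up to the 75th percentile, 7 of 15 members were at least 1.5-fold in at least 1 of the 4 pairs, where 49.4% of genes were. At or above the 75th percentile 3 of 14 members were (IRF3, ISG15 and IFI6), where 8.02% of genes were. That difference in shares was not tested.

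The difference between the 2 pairs of a knockdown, which equals the departure of both knockdowns from the sum of the single effects, had a median of -0.05 over the 29 members and -0.01 over all genes. It was below 0 for 20 members, where the 25th and 75th percentiles of all genes were -0.18 and 0.16. The share of all genes below 0 was not counted. This count and that of members below 0 with both knockdowns over p53 shRNA share the array with both knockdowns. After CGAS the largest values were 0.69 for IFIT3, -0.61 for SAMD9, -0.59 for IFI6 and -0.58 for IRF9. For ISG15, IFI35, IFITM3, BST2, OASL and PSMB9 it was between -0.02 and 0.00.

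Probe sets of a member did not always have the same sign. Among probe sets of mean signal at or above 15, those of OAS1, OASL and SAMD9 lay on opposite sides of 0 in a pair. In that pair 1 of them was at least 1.5-fold. With dimmer probe sets counted, this also held for IFIT3, IFIH1, HERC6 and CGAS, and for the dim members IFI44, OAS2 and XAF1. For p53 shRNA over control shRNA, the IFIT3 probe sets were at -0.04 and 0.86 and those of IFIH1 at 0.11, 0.71 and -0.56. HERC6 and CGAS disagreed in all 4 pairs.

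**Figure D4:**
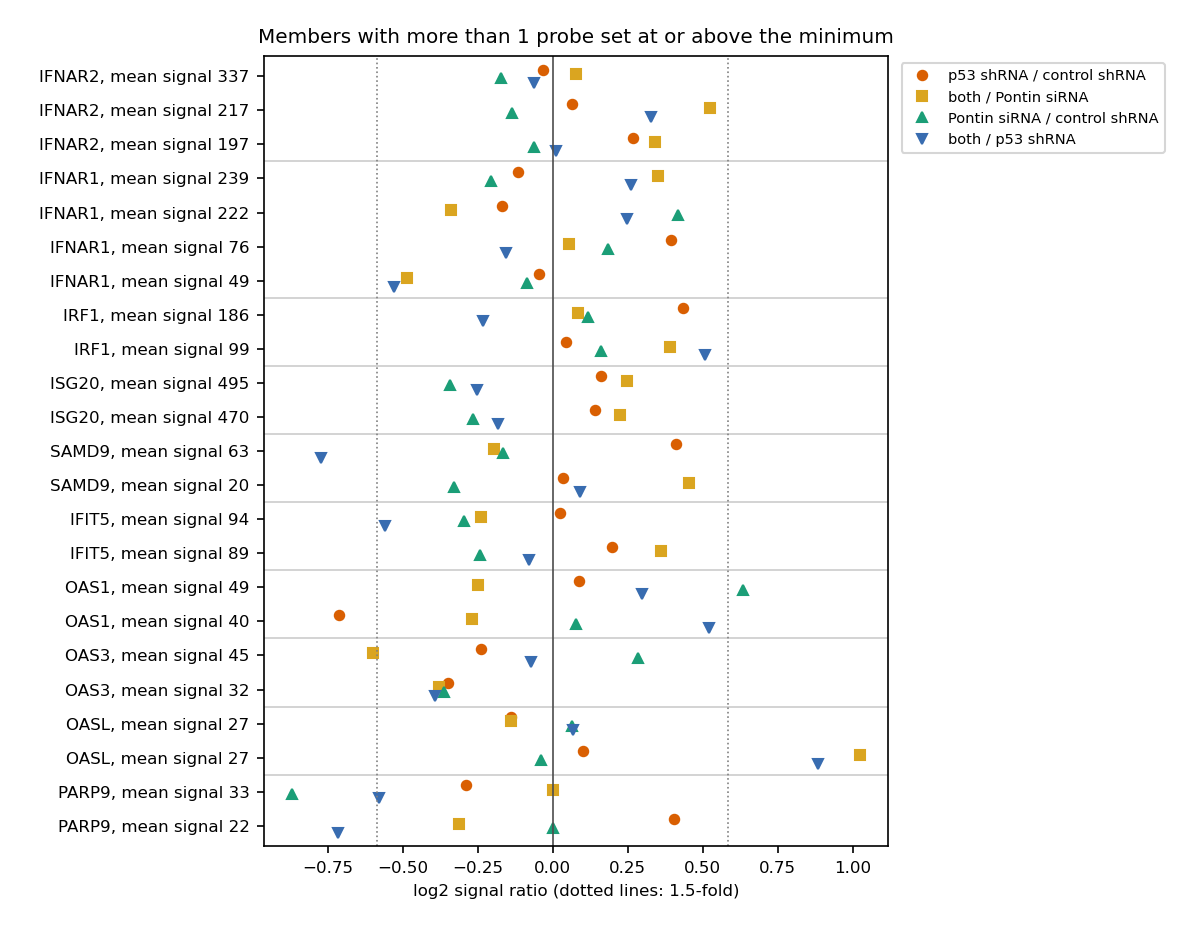
Log2 signal ratios in the 4 pairs for each probe set of the members with more than 1 probe set of mean signal at or above 15; rows give the mean signal, "both" stands for both knockdowns, and dotted lines mark 1.5-fold. Both ISG20 probe sets keep their signs in all 4 pairs, while OASL, at a mean signal of 27 on either probe set, reaches 1.02 on one of them only.

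Other genes of the pathway, taken from a list of 83, gave few calls. Of these, 76 had a named probe set and 55 reached the signal minimum. With p53 shRNA, 0 of the 55 were called higher and 0 lower, and with Pontin siRNA 1 was called in each direction, against the shares of all genes given above. The medians of the mean log2 ratios over the 55 genes were 0.02 for p53 shRNA and 0.03 for Pontin siRNA. TNFSF10, which encodes the death ligand TRAIL, was lower, with signals of 347.8 with both knockdowns and 361.4 with Pontin siRNA, against 558.7 with p53 shRNA and 601.7 with control shRNA. The arrays did not overlap, at log2 ratios of -0.68 in p53 shRNA cells and -0.74 over control shRNA. IFNL1, which encodes a type III interferon, was higher, with 24.6 with both knockdowns and 23.7 with Pontin siRNA, against 8.6 with p53 shRNA and 10.6 with control shRNA. Its mean signal of 15.2 reached the minimum only through the 2 Pontin siRNA arrays in which it is high, so its call gives no support to a difference. The type I ligand genes measured, IFNA1, IFNA2, IFNB1, IFNE and IFNK, had signals between 0.3 and 7.4.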

How the data were processed

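RNA of 4 SK-BR-3 cultures was measured on 1 Affymetrix array each, from 200 ng of total RNA per the labels' protocols. The authors deposited linear intensity values (MAS5 signals), per the submitters' processing notes, with no version named. Trimmed by 2% at either end, the deposited signals average 150.0 on every array, so they share this average. The 11 hybridization controls did not: their mean on the double knockdown array was 4208, or 1.25 times that of the control array. The arrays of the single knockdowns stood at 1.05 times (p53 shRNA) and 1.02 times (Pontin siRNA). The part of this in the ratios was not tested. No detection calls were used here. The 4 arrays limit the precision.

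Gene names came from GEO's platform annotation and were brought up to date by Entrez identifier. Of the 54675 probe sets, 41097 had 1 symbol, of which 41043 matched the gene table, and 1801 had several and were left out. The 14 signals of 0 were set to 0.1, and log2 values were taken with no further normalization. Each gene was read from its brightest probe set. Pairwise Pearson correlations between arrays lay between 0.981 and 0.988 on the log2 scale, over the 12128 genes of mean signal at or above 15. Members, lists, the search motif and the rule for named genes were chosen with earlier results of these data known. The rule gives all members at or above the minimum by role, with signals for those 1.5-fold in a pair or bright and for 2 to 4 of each role, and names dim members by range, with ratios only for genes past 4-fold in a pair. TNFSF10 and IFNL1 were the calls of the other list. Calls were tested on simulated data with less scatter between arrays than these arrays show, so the error rate of calls here is not known from it. Promoter windows are from RefSeq, GRCh38.p14. Alternatives were quantile, cyclic loess and median scaling, probe set choice, a pseudocount of 16, the signal filter and the fold threshold. Tools were Python 3.11.15, pandas 2.3.3, R 4.3.3 and limma 3.58.1.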

Additional observations from a re-analysis of the deposited data

Results flagged for a closer look

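Several members moved in opposite directions in the 2 pairs of a knockdown, each by at least 1.5-fold. The value given is the second pair minus the first in log2, where the second pair is the one that holds the array with both knockdowns. None of these differences was tested, since each rests on 4 single arrays. CGAS, at a mean signal of 31.1, had 3.95 for either knockdown. All others were dim members with mean signals between 1.60 and 8.54. IFI44L had 4.20 and MX1 -3.92 for either knockdown. For p53 shRNA, IFIT1 had 3.09 and MX2 1.38. For Pontin siRNA, IFI44 had -1.83. With 1 array per group no group was large enough to look for a single outlying array.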

How the results depend on the processing

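No member was called for p53 shRNA under quantile, cyclic loess or median scaling, the mean over probe sets, without cross-hybridizing probe set types, with the pseudocount, among bright genes or at 2-fold. At 1.3-fold 2 of 29 members were called (ISG15 and IFI35, lower), where 6.11% of all genes were, and without a filter on signal 1 of 39 (HERC5, lower), where 9.64% were. For Pontin siRNA, PARP9 was called lower after quantile, cyclic loess and median scaling and at 1.3-fold, giving 1 call of 29 each, where 2.22%, 2.22%, 2.55% and 7.16% of all genes were called. These counts are near the background. Without a filter 3 of 39 members were called (MX2 and HERC5 lower, XAF1 higher), where 9.71% of all genes were. The median of the members' mean p53 shRNA ratio, 0.05, was -0.082 after median scaling, 0.15 with the mean over probe sets, 0.077 without cross-hybridizing types, 0.10 without a filter and 0.13 among bright genes. That for Pontin siRNA, -0.03, was -0.10 after quantile, -0.10 after cyclic loess and -0.20 after median scaling, and -0.087 among bright genes. The median departure, -0.05, was -0.15, -0.13 and -0.29 after these 3 scalings. Median scaling moved the median of all genes to -0.26 and -0.29 in the pairs that set both knockdowns over Pontin siRNA and over p53 shRNA, where 8 and 7 of 29 members changed sign. In the other changes the cause was not tested. Single members' mean ratios changed sign for 0 to 8 of 29 members per scaling, and for 5 with the mean over probe sets. Without cross-hybridizing types CGAS had mean ratios of 1.57 for p53 shRNA and -0.16 for Pontin siRNA, against 0.38 and 0.99, from a probe set of mean signal 1.19. Dim signals limit the precision: at mean signals from 15 to 110.9, 49.4% of genes were 1.5-fold apart in some pair.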
